A study of Arabidopsis thaliana with 6 samples.

Results

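The genes described here are those that Arabidopsis thaliana uses to make ribosomes: 205 of the 27947 genes in the deposited table. A protein-coding gene was taken when its Gene Ontology (GO) annotation in that table held the term "rRNA processing" (150 genes), "small-subunit processome" (45) or "ribosome biogenesis" (78), and 62 genes held more than 1 of these terms. Another 12 genes with such a term were left out because their descriptions begin with the name of a cytosolic subunit and so name ribosomal proteins. The group was selected on the difference in its FPKM between cdc5 and Col-0, the same comparison as here, so the levels, the standard errors (SE) and the calls below describe the genes and are no independent test of them.

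The study sequenced polyadenylated RNA from 3 cdc5 mutant and 3 Col-0 wild-type libraries, all labelled as rosette leaves, and its title concerns CDC5 in flowering. CDC5, a protein with MYB-type repeats, belongs to a complex that works with the spliceosome. The allele, the age and the growth of the plants are not given in the labels, and the numbered mutant titles could also be read as allele names. Whether libraries of 1 genotype stand for separate plants is not stated in the labels, so their spread may be technical. CDC5 itself (AT1G09770) had 21.8, 21.3 and 21.0 FPKM in cdc5, against 38.2, 37.0 and 36.1 FPKM in Col-0, where FPKM is a count of fragments scaled by transcript length and by library total. The mutant libraries thus kept 57.5% of the Col-0 level.

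Ribosomes are built in the nucleolus, where RNA polymerase I transcribes a long precursor of the ribosomal RNAs. Small nucleolar RNA-protein particles (snoRNPs) guide methylation of the ribose by box C/D particles and formation of pseudouridine by box H/ACA particles. The small-subunit processome folds and cleaves the part that becomes the small subunit, a second set of factors matures the large subunit, and nucleases trim the ends and remove the spacers. Chloroplasts and mitochondria have their own rRNAs and their own processing factors. In plants, many genes of cytosolic ribosome production carry a telo box or a site II element close to where transcription starts.

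Those elements are shown first, in the 150 bases before the annotated start of 4 genes with high log2 fold changes. These 4 are examples that hold such elements and are not the 4 highest. AT3G15080 and AT1G18850, at log2 fold changes of 0.965 and 0.932, had neither element in the wider window used below. NOP56 (AT1G56110, chr1:20986953-20987102, minus strand) and NOP5-1 (AT5G27120, chr5:9540711-9540860, plus strand) encode core proteins of box C/D particles, and AT3G12860 (chr3:4091417-4091566, plus strand) encodes a NOP56-like protein. EDA7 (AT3G56990, chr3:21092170-21092319, minus strand) carries the processome term. AT3G57000, a small-subunit gene of the same group on the plus strand, starts at chr3:21092183. Most of the EDA7 stretch shown thus lies inside AT3G57000, and its elements cannot be assigned to EDA7 alone. Sequences run 5′ to 3′ on the gene's strand and come from the RefSeq TAIR10.1 genome. Capitals mark the telo box AAACCCTA and the site II elements TGGGCC and TGGGCT on either strand, so TAGGGTTT, GGCCCA and AGCCCA count as well.
NOP56: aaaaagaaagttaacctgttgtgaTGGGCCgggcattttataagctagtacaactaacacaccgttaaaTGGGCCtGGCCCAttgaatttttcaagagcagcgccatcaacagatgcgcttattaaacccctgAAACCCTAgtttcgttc
AT3G12860: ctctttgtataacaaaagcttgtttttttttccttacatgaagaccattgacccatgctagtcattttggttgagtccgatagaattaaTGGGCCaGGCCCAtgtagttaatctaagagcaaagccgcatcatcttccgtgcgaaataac
NOP5-1: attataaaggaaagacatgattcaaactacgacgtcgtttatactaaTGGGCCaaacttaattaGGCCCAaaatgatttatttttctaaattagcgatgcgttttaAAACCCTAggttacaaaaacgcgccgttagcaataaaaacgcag
EDA7: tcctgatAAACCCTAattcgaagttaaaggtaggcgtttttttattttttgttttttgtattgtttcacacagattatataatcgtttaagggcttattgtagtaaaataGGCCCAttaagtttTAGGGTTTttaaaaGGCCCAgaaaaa

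From 250 bases before to 50 bases after the annotated start, a telo box stood in 56 of the 205 promoters (27.3%), against 6.2% of 27443 protein-coding promoters of the same length. A site II element stood in 98 (47.8%), against 21.7% of all promoters, and both stood in 28 (13.7%), against 2.2%. The shares differed between roles: 11 of 17 snoRNP genes (64.7%) and 13 of 27 large-subunit genes (48.1%) had a telo box, against 1 of 26 organelle genes (3.8%) and none of 13 methyltransferase genes. Cytosolic ribosomal protein genes, of which 213 are in the table, had the telo box in 48.4% and site II in 73.2% of promoters. Position within the window was also counted. Telo boxes of the ribosome biogenesis genes were densest in the first 25 bases after the start, with 10.7 per 100 promoters against 0.9 for all promoters. Site II elements were densest between 75 and 50 bases before the start, with 24.4 per 100 promoters against 7.17 for all promoters. Over all promoters site II was densest in that same stretch, so its place is not particular to these genes. Telo boxes over all promoters were nearly level around the start. They stood at 0.94 per 100 in the 25 bases before it and 0.90 in the first 25 after it. The ribosome biogenesis genes had 5.37 and 10.73 per 100 in these 2 bins. The windows of neighbouring genes such as EDA7 and AT3G57000 overlap, so a match in the shared stretch counts for both genes. A match is a run of letters and does not show that a factor binds there.

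**Figure D1:**
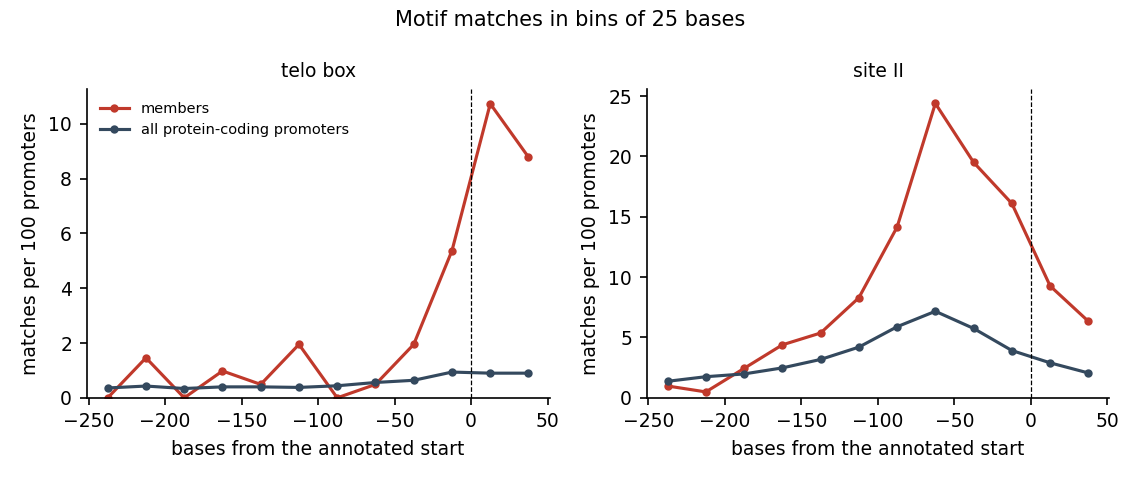
Matches to the telo box (left) and to site II (right) per 100 promoters in bins of 25 bases, against the distance of the bin's centre from the annotated start in bases, for the 205 ribosome biogenesis genes (red) and all 27443 protein-coding promoters (dark). The red telo box line peaks just after the start at 10.7 and the red site II line before it at 24.4.

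Levels were summed over the transcripts of each gene, and 193 of the 205 genes reached a mean of 1 FPKM over the 6 libraries. Called means a limma adjusted p under 0.05 over all 19778 genes that passed this filter. By that rule 148 of the 193 were called higher in cdc5, where 33.3% of all genes tested were called higher, and 8 were called lower, against 22.4% of all genes tested. The median log2 fold change was 0.47 (quartiles 0.22 and 0.66), against 0.06 over all genes tested, and it was 0.46 over all 205 genes without the filter. All cdc5 libraries lay above all Col-0 libraries in 150 of the 193 genes, against 38.1% of all genes tested, and below them in 10, against 25.5%. At least 2-fold higher were 4 genes (1.19% of all genes tested), and 0 were at least 2-fold lower (1.64%). The 4 became 2 without Col-0 replicate 1, 8 with a pseudocount of 0.1, and 0 with cyclic loess scaling or after adjustment for length and GC content. The genes next to that 2-fold bound were EDA7 and AT4G26600, at log2 fold changes of 1.01 and 0.98. Summed over the 205 genes, the level was 7117, 7035 and 7085 FPKM in cdc5, against 5558, 5560.1 and 5445 FPKM in Col-0, a ratio of 1.28.

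The proteins of the ribosome itself were described in the same way. Of 206 cytosolic ribosomal protein genes that passed the filter, 80 were called higher and 32 lower, with a median log2 fold change of 0.07, where 33.3% of all genes tested were called higher and 22.4% lower, with a median of 0.06. Their summed level was 48687, 48669.6 and 47562 FPKM in cdc5, against 45179, 47191 and 46229.7 FPKM in Col-0. With cyclic loess scaling the ribosomal protein genes gave 127 higher and 21 lower with a median of 0.168 (0.007 over all genes tested), and the biogenesis genes 142 and 9 with a median of 0.418. After the length and GC adjustment the ribosomal protein genes gave 116 higher and 21 lower with a median of 0.139 (0.020 over all genes tested), and the biogenesis genes a median of 0.388. The difference between these groups was not tested.

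**Figure D2:**
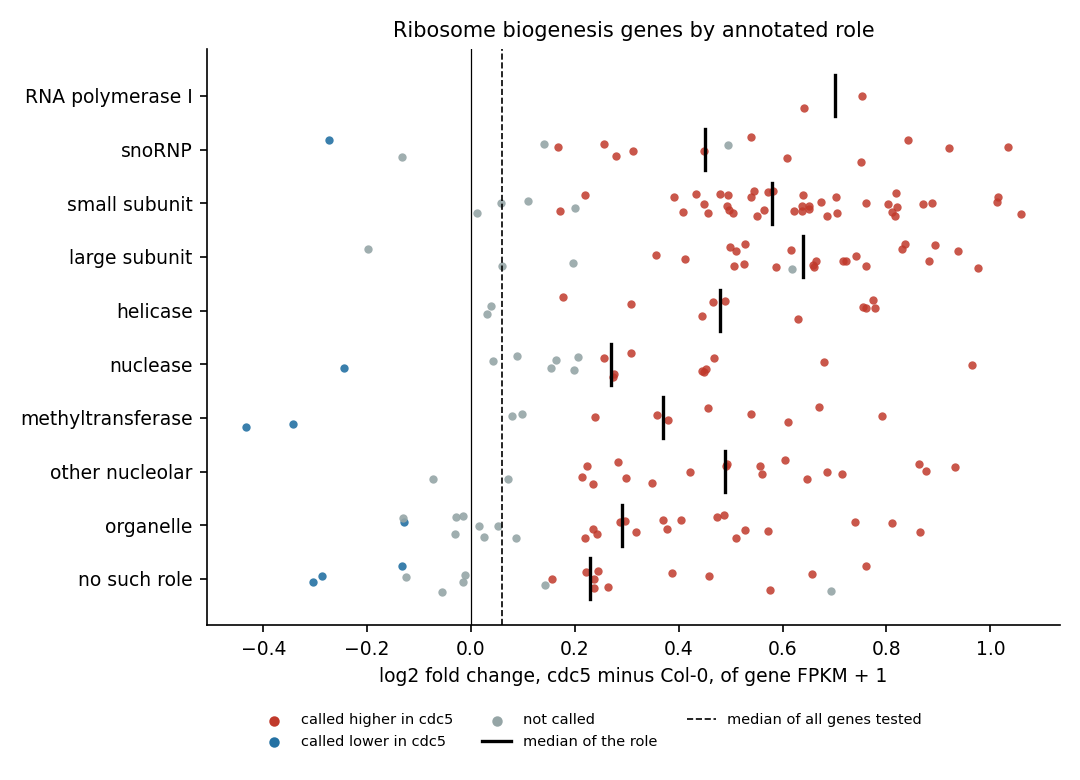
Log2 fold change, cdc5 minus Col-0, of each of the 193 genes that passed the filter (points), by annotated role, with the median of each role (thick bars) and the median of all genes tested (dashed line, 0.06). Points of the small-subunit row reach from 0.01 to 1.06 and those of the large-subunit row from -0.20 to 0.98, while the organelle row is centred at 0.29.

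Transcription of the precursor is represented by the subunits of RNA polymerase I. NRPA2 (AT1G29940) and NRPA1 (AT3G57660), its 2 largest subunits, are the annotated genes of this role. NRPA2 had 20.8, 20.8 and 20.9 FPKM in cdc5, against 11.96, 11.96 and 11.97 FPKM in Col-0, a log2 fold change of 0.75 (SE 0.045). NRPA1 had 16.76, 15.999 and 15.98 FPKM in cdc5, against 10.67, 9.51 and 10.002 FPKM in Col-0. Both genes separated the genotypes without overlap.

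Levels of the snoRNP genes mostly rose. Of 17 such genes, box C/D and box H/ACA together, 15 passed the filter, 11 rose in cdc5 (73.3%), 1 fell (6.7%) and 3 were not called. In these counts and those of the roles below, rose and fell mean called higher and called lower. Over all genes tested the shares were 33.3% and 22.4%. NOP56 had 157, 160.3 and 157 FPKM in cdc5, against 91.4, 95.8 and 93.7 FPKM in Col-0 (log2 fold change 0.75, SE 0.03), and NOP5-1 had 68.4, 67.1 and 67.3 FPKM in cdc5, against 33.9, 37.5 and 34.4 FPKM in Col-0 (0.92, SE 0.045). AT3G12860 stood at 14.1 ± 0.318 FPKM in cdc5 and 6.36 ± 0.374 FPKM in Col-0 (SD, n = 3 each), a ratio of 2.21. Fibrillarin, the methyltransferase of box C/D particles, is encoded by FIB1 and FIB2, which did not move together. FIB1 (AT5G52470) had 156, 155 and 162 FPKM in cdc5, against 188, 191 and 193 FPKM in Col-0 (log2 fold change -0.27, SE 0.03). FIB2 (AT4G25630) had 63.3, 59.3 and 60.4 FPKM in cdc5, against 50.2, 49.9 and 46.9 FPKM in Col-0 (0.31, SE 0.04). FIB2 thus made up 27.9% ± 0.9 of the pair's FPKM in cdc5 and 20.4% ± 0.8 in Col-0 (SD, n = 3 each), and FIB1 was the more abundant in every library. FIB3 (AT5G52490) stayed at or below 0.64 FPKM in all libraries.

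Among box H/ACA proteins, NAP57 (AT3G57150), the pseudouridine synthase known as dyskerin in animals, had 81.6, 84.8 and 81.8 FPKM in cdc5, against 58.8, 61.1 and 61.2 FPKM in Col-0. ATNAF1 (AT1G03530), which in yeast assists assembly of these particles and was named after its values were seen, stood at 14.0 ± 0.195 FPKM in cdc5 and 7.38 ± 0.509 FPKM in Col-0 (SD, n = 3 each). GAR1 (AT3G03920) was called higher with a log2 fold change of 0.17, a call lost when any of 4 single libraries was left out. NOP10 (AT2G20490) and NHP2 (AT5G08180) were not called. NHP2 had 97.8, 96.7 and 59.2 FPKM in cdc5, against 66.3, 72.7 and 40.8 FPKM in Col-0, so replicate 3 was low in both genotypes and the groups overlapped. With the replicate number as a block NHP2 passed the threshold.

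Nucleolin, an abundant nucleolar RNA-binding protein, is encoded by NUC1 (AT1G48920) and NUC2 (AT3G18610), and both rose. NUC1 had 289, 294 and 285 FPKM in cdc5, against 210.0, 217 and 208 FPKM in Col-0, the highest mean among the small-subunit genes. NUC2 had 3.379, 3.599 and 3.453 FPKM in cdc5, against 1.93, 1.97 and 1.93 FPKM in Col-0. NUC2 made up 1.2% of the pair's FPKM in cdc5 and 0.9% in Col-0.

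Nearly all tested genes of the small subunit were higher in cdc5. Of its 48 genes, 43 passed the filter, 39 rose, none fell and 4 were not called, with a median log2 fold change of 0.58. Their summed level was 1270.3, 1263 and 1289 FPKM in cdc5, against 874, 881 and 853 FPKM in Col-0. The 3 with the largest log2 fold changes were AT3G10530, AT4G04940 and EDA7, at 1.06 (SE 0.07), 1.01 (SE 0.07) and 1.01 (SE 0.09). AT3G10530 had 18.4, 18.3 and 18.4 FPKM in cdc5, against 8.86, 7.41 and 8.71 FPKM in Col-0. EDA7 had 18.2, 18.9 and 18.2 FPKM in cdc5, against 10.06, 8.57 and 7.44 FPKM in Col-0, and no library of one genotype reached the other.

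The same direction held for the small-subunit genes named next. PWP2 (AT1G15440), a WD-repeat component of the processome, stood at 22.8 ± 0.497 FPKM in cdc5 and 11.9 ± 1.38 FPKM in Col-0, and NOC4 (AT2G17250) at 22.2 ± 0.940 and 11.7 ± 0.190 FPKM (SD, n = 3 each). YAO (AT4G05410), a U3-associated WD-repeat protein needed for embryo and gametophyte development, had a log2 fold change of 0.81, MPP10 (AT5G66540) of 0.67 and IMP4 (AT1G63780) of 0.70. NOB1 (AT5G41190), whose yeast counterpart makes the final cut at the end of the small-subunit rRNA, had 32.5, 32.0 and 32.3 FPKM in cdc5, against 21.0, 18.6 and 18.6 FPKM in Col-0. TOZ (AT5G16750), NOF1 (AT1G17690), RRP5 (AT3G11964) and THAL (AT2G43650) rose by 0.62, 0.55, 0.54 and 0.49 on the log2 scale. AT5G08420, a KRR1 homolog, and AT2G46230 were the next most abundant after NUC1, and rose by 0.41 and 0.17.

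Large-subunit factors had a median log2 fold change of 0.64: 26 of 27 genes passed the filter, 22 rose and none fell. PES (AT5G14520), BOP1 (AT2G40360) and WDR12 (AT5G15550), which form the PeBoW complex of large-subunit maturation, moved alike. PES had 61.3, 57.3 and 61.7 FPKM in cdc5, against 39.0, 38.2 and 39.3 FPKM in Col-0, and BOP1 had 53.6, 48.9 and 51.1 FPKM in cdc5, against 33.2, 31.9 and 30.8 FPKM in Col-0. WDR12 stood at 30.0 ± 0.527 FPKM in cdc5 and 20.6 ± 1.10 FPKM in Col-0 (SD, n = 3 each). AT4G26600, a putative methyltransferase, and AT1G13160, an ARM-repeat protein, had the largest differences of this role, at 0.98 (SE 0.07) and 0.94 (SE 0.05). ATG2 (AT3G51800), the most abundant gene of this role, had 107, 98.9 and 103 FPKM in cdc5, against 79.5, 81.3 and 79.99 FPKM in Col-0.

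Assembly and release factors of the large subunit were less uniform. EIF6A (AT3G55620), whose product keeps the large subunit from joining the small one, rose by 0.41, while EIF6-1 (AT2G39820), its low paralog, stood at 2.68 ± 0.337 FPKM in cdc5 and 3.22 ± 0.184 FPKM in Col-0 (SD, n = 3 each) and was not called. REIL2 (AT2G24500), a cytoplasmic maturation factor, had 27.8, 27.1 and 25.3 FPKM in cdc5, against 18.9, 18.6 and 18.1 FPKM in Col-0. Its paralog REIL1 (AT4G31420) had 21.7, 22.1 and 23.1 FPKM in cdc5, against 22.2, 21.6 and 20.3 FPKM in Col-0, and the genotypes overlapped. BRX1-1 (AT3G15460) and BRX1-2 (AT1G52930) both rose, by 0.50 and 0.72. MDN1 (AT1G67120), the large ATPase that strips factors from the pre-60S particle in yeast, had a log2 fold change of 0.20 (SE 0.09) and was not called, with the groups apart by a narrow gap. AT2G44860, annotated as the factor RLP24, had 88.2, 56.0 and 84.4 FPKM in cdc5, against 41.0, 65.8 and 41.7 FPKM in Col-0, so replicate 2 of each genotype went against the other 2 and the gene was not called.

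**Figure D3:**
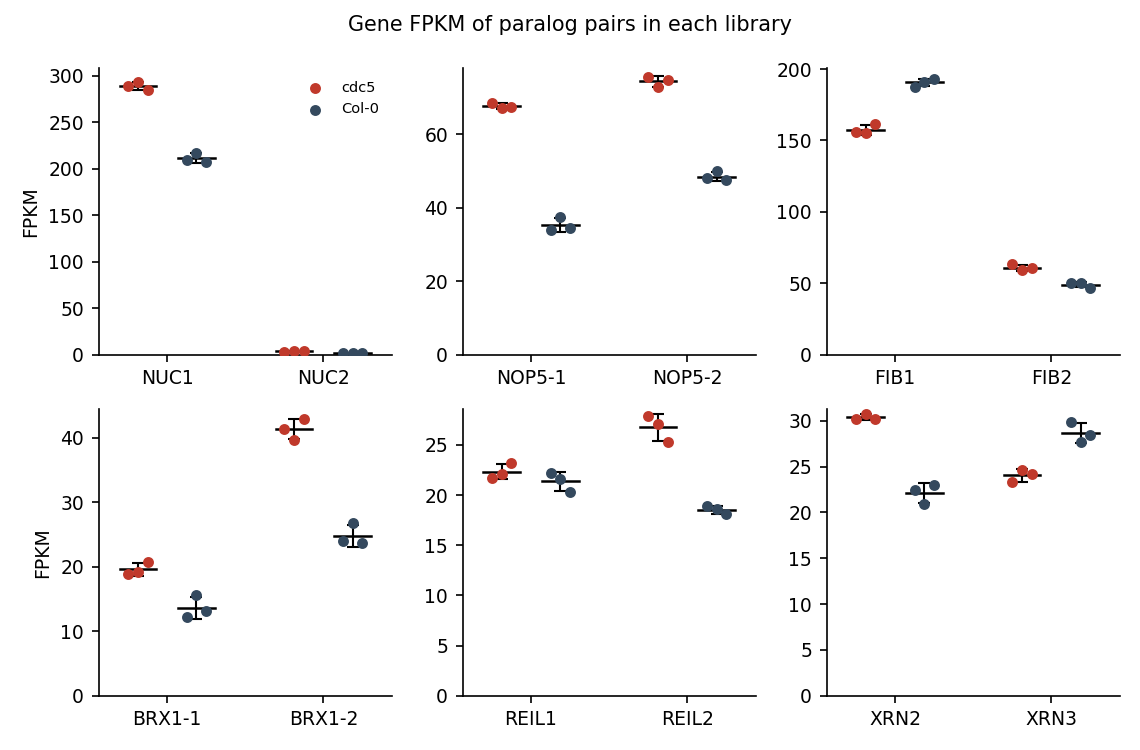
Gene FPKM in each library (points) with mean and SD (n = 3) for 6 paralog pairs, cdc5 in red left of Col-0 in dark. Both genes of the NUC, NOP5 and BRX1 pairs are higher in cdc5, while FIB1 and XRN3 are lower and FIB2, XRN2 and REIL2 are higher.

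Helicases and GTPases of the nucleolus followed the subunit factors. Of 12 helicase genes 10 rose and none fell. RH10 (AT5G60990) had 26.96, 25.1 and 26.2 FPKM in cdc5, against 14.7, 14.9 and 14.9 FPKM in Col-0. RH14 (AT3G01540), the most abundant gene of the role, had 96.8, 97.5 and 95.9 FPKM in cdc5, against 88.3, 84.4 and 83.5 FPKM in Col-0, and rose by 0.18 on the log2 scale. RH5 (AT1G31970), also called STRS1, had a ratio of 1.41, and SWA3 (AT1G16280), a helicase required in female gametogenesis, one of 1.64. MTR4 (AT1G59760), the helicase that feeds RNA to the nuclear exosome, stood at 19.3 ± 0.298 FPKM in cdc5 and 13.9 ± 0.293 FPKM in Col-0 (SD, n = 3 each). Among the 22 other nucleolar genes 18 of the 20 tested rose, with the GTPase genes LSG1-2 (AT1G08410) and NUG2 (AT1G52980) at 0.86 and 0.56, SWA2 (AT1G72440) at 0.65 and SWA1 (AT2G47990) at 0.35. AT1G18850 had the largest log2 fold change of that role, 0.93, and stood at 17.3 ± 0.736 FPKM in cdc5 and 8.61 ± 0.505 FPKM in Col-0 (SD, n = 3 each). AT1G50920, annotated as nucleolar GTP-binding protein 1, rose to 94.9, 92.5 and 94.7 FPKM in cdc5, against 67.8, 64.5 and 67.5 FPKM in Col-0, and AT1G63980 rose by 0.24. ALY3 (AT1G66260), an mRNA export adaptor, had 70.4, 70.5 and 69.7 FPKM in cdc5, against 84.8, 67.9 and 70.0 FPKM in Col-0, and was not called.

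Nucleases had a lower median log2 fold change, 0.27, and 10 of 17 tested genes rose and 1 fell. The nuclear 5′-to-3′ exonucleases XRN2 (AT5G42540) and XRN3 (AT1G75660) differed in direction. XRN2, which trims rRNA precursors in plants, had 30.2, 30.8 and 30.2 FPKM in cdc5, against 22.5, 20.9 and 23.0 FPKM in Col-0. XRN3 had 23.3, 24.7 and 24.2 FPKM in cdc5, against 29.9, 27.7 and 28.5 FPKM in Col-0. XRN2 was the higher of the pair in every cdc5 library (55.8% ± 0.5 of their sum) and the lower in every Col-0 library (43.5% ± 1.0; SD, n = 3 each). Among exosome genes, RRP6L2 (AT5G35910) rose by 0.47, RRP44A (AT2G17510) by 0.28 and RRP41 (AT3G61620) by 0.26. The RRP41 call was lost with cyclic loess scaling and when any of 4 single libraries was left out, and the RRP44A call after adjustment for length and GC content. RTL2 (AT3G20420), which cleaves the external spacer, stood at 1.93 ± 0.199 FPKM in cdc5 and 1.75 ± 0.151 FPKM in Col-0 (SD, n = 3 each) and was not called. AT3G15080, annotated with exonuclease activity, had the largest difference of the role, with 17.6, 15.4 and 17.6 FPKM in cdc5, against 7.99, 8.25 and 8.17 FPKM in Col-0.

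Of the 12 tested genes placed as methyltransferases 8 rose and 2 fell. RID2 (AT5G57280), first known from root initiation, stood at 23.6 ± 1.86 FPKM in cdc5 and 14.4 ± 0.791 FPKM in Col-0, DIM1A (AT2G47420), the adenine dimethylase of small-subunit rRNA, at 18.8 ± 0.736 and 15.8 ± 0.192 FPKM, and AT2G39670 at 43.0 ± 0.570 and 27.9 ± 1.54 FPKM (SD, n = 3 each). The 2 that fell had the lowest log2 fold changes of all 193 tested genes. AT5G10605 had 1.62, 1.04 and 1.83 FPKM in cdc5, against 2.55, 2.64 and 1.88 FPKM in Col-0, and its call was lost when any of 4 single libraries was left out. AT5G10620 had 5.44, 5.18 and 4.91 FPKM in cdc5, against 7.19, 6.16 and 7.17 FPKM in Col-0.

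Factors of the chloroplast and mitochondrion were also higher in most cases. Of 26 organelle genes, 17 rose and 1 fell, with a median of 0.29, and their summed level was 1207, 1218 and 1201 FPKM in cdc5, against 1096, 1071 and 1062 FPKM in Col-0. RH3 (AT5G26742), a plastid helicase, had 157, 155 and 155 FPKM in cdc5, against 116, 109 and 111 FPKM in Col-0. The most abundant, CRB (AT1G09340), a chloroplast RNA-binding protein, had 223, 217 and 219 FPKM in cdc5, against 225, 217 and 209.6 FPKM in Col-0, and was not called. It was called higher with cyclic loess scaling (log2 fold change 0.12), and its value had the opposite sign after adjustment for length and GC content (-0.10). Its partner CSP41A (AT3G63140) had 150.4, 155 and 147 FPKM in cdc5, against 169, 165 and 161 FPKM in Col-0, a fall that was not called with cyclic loess scaling and had the opposite sign after adjustment for length and GC content. YbeY (AT2G25870), an endoribonuclease of plastid rRNA, stood at 25.6 ± 0.474 FPKM in cdc5 and 26.2 ± 0.807 FPKM in Col-0 (SD, n = 3 each).

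The remaining 20 genes fell in no such role, and 3 of the 8 genes called lower are among them. They include RACK1A (AT1G18080) and RACK1B (AT1G48630), scaffold proteins of the ribosome, which rose by 0.16 and 0.39. The 5 UDP-glucose 4-epimerases of sugar metabolism carry an rRNA processing term in the table. Of these, 0 were called higher, 2 lower and 3 were not called, where 22.4% of all genes tested were called lower. UGE3 (AT1G63180), not called, had a log2 fold change of 0.14. UGE1 (AT1G12780) had 46.4, 47.3 and 47.2 FPKM in cdc5, against 59.5, 56.1 and 56.9 FPKM in Col-0, and UGE5 (AT4G10960) also fell (log2 fold change -0.30, SE 0.09), a call lost when any of 3 single libraries was left out. AT1G26550, a peptidyl-prolyl isomerase, fell by 0.13, a call lost under 9 of the alternatives tried. GRF4 (AT3G52910), a growth-regulating factor that carries a term of this group, had 12.9, 13.3 and 12.47 FPKM in cdc5, against 10.9, 10.8 and 10.7 FPKM in Col-0.

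Known ribosome biogenesis genes without these terms gave a like picture. Of 18 such genes on a list of the pathway, 16 were called higher and none lower, where 33.3% of all genes tested were called higher. APUM24 (AT3G16810), a Pumilio protein of spacer processing, had 34.9, 32.5 and 33.7 FPKM in cdc5, against 19.0, 17.4 and 18.6 FPKM in Col-0, and NSN1 (AT3G07050), a nucleostemin GTPase, had 49.1, 48.4 and 47.8 FPKM in cdc5, against 30.0, 29.3 and 28.5 FPKM in Col-0. APUM23, RBL and NMD3, factors of either subunit, rose by 0.50, 0.68 and 0.37. The exosome genes RRP4, CSL4, RRP45B and RRP6L1 rose by 0.41, 0.36, 0.32 and 0.29, and the polymerase subunits NRPA3 and NRPA12 by 0.44 and 0.39. ANAC082, a NAC transcription factor that mediates the response to nucleolar stress, had 34.0, 33.3 and 29.8 FPKM in cdc5, against 28.8, 26.7 and 25.9 FPKM in Col-0. Among plastid factors RH39, RH22, SOT1 and RHON1 rose by 0.52, 0.51, 0.50 and 0.44, while BPG2 and EMB2738 were not called. This list too was drawn up with earlier results of these libraries known.

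The introns of 4 of the genes hold snoRNA genes on the same strand, and these had higher FPKM in cdc5 even where the host did not. Of these, 3 lie in introns of NHP2 (AT5G01495, AT5G01505 and AT5G01515), and 1 each in introns of FIB1 (U60.1F, AT5G52471), FIB2 (U60.2F, AT4G25631) and ATG2 (AT3G08210). The U60 genes are shown for their likeness and their place in the fibrillarin genes, at chr5:21295736-21295809 and chr4:13075563-13075635, both on the plus strand of TAIR10.1. Capitals mark TGATGA and CTGA, the usual letters of boxes C and D, searched on the gene's own strand; both occur in 48.4% of the 256 nuclear snoRNA genes in the table.
U60.1F: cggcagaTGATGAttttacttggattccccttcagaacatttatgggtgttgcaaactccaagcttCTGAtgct
U60.2F: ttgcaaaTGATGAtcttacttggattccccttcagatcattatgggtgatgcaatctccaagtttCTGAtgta

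U60.1F had 6.96, 6.33 and 8.96 FPKM in cdc5, against 1.98, 2.09 and 1.63 FPKM in Col-0, while its host FIB1 fell. AT5G01495 had 6.16, 5.99 and 4.81 FPKM in cdc5 and stands at 0 in each Col-0 library. AT5G01515 had 5.04, 5.43 and 5.95 FPKM in cdc5, against 0.383, 0.304 and 0.197 FPKM in Col-0. AT5G01505 showed 5.31, 3.73 and 5.19 FPKM in cdc5, against 0.185, 0.160 and 0.281 FPKM in Col-0. For each of the 6, all cdc5 libraries lay above all Col-0 libraries, where 38.1% of all genes tested did so. The values are short features at low depth: at the estimated library sizes they stand for a median of 3.1 to 19.5 fragments per gene in cdc5 and 0 to 3 fragments in Col-0. Of the 6, 5 reached the mean of 1 FPKM, and 4 of these did so only through cdc5, with Col-0 means of 0 to 0.787 FPKM, so their calls were largely fixed by the filter and are not counted here. Other protein-coding genes also hold snoRNA genes on the same strand inside introns. Of 38 such snoRNA genes 29 passed the filter, and 20 were called higher in cdc5 and 0 lower. Over all genes tested 33.3% were called higher and 22.4% lower. How far the filter shaped those 20 calls was not tested, so they do not settle whether the direction is particular to these hosts. Fragments from the snoRNA and from the unspliced intron around it cannot be told apart in these values.

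**Figure D4:**
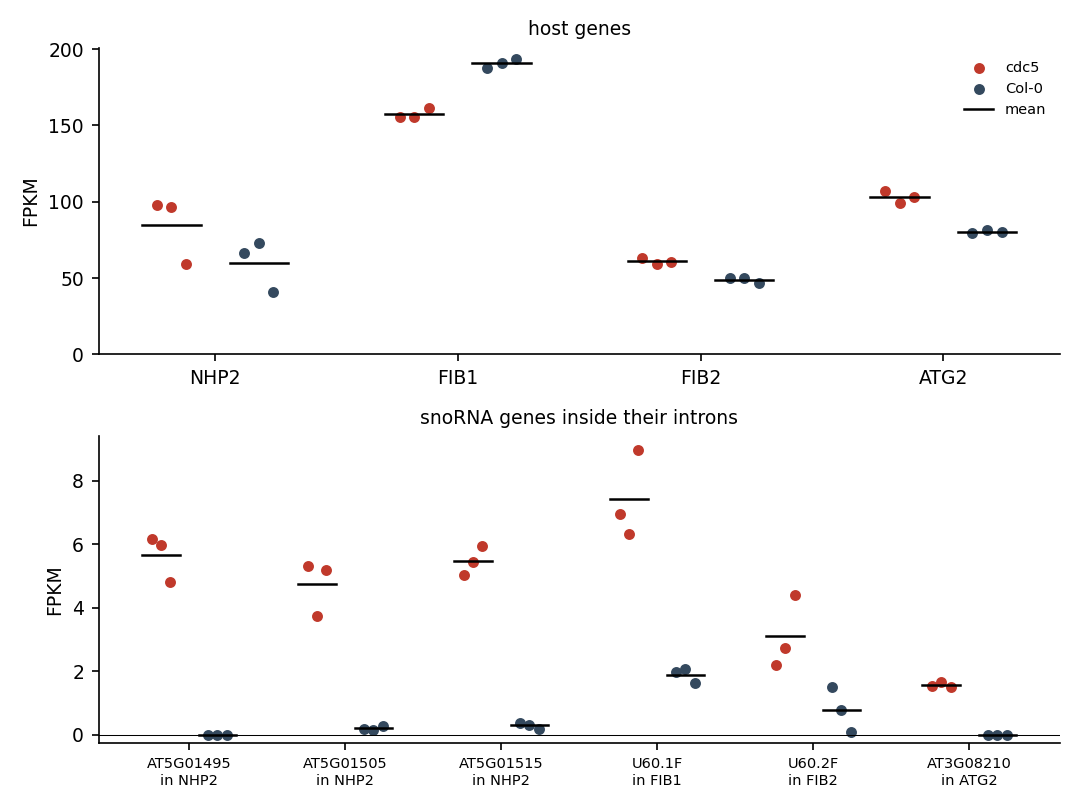
FPKM in each library (points, bar at the mean) of 4 host genes (top) and of the 6 snoRNA genes inside their introns (bottom), cdc5 in red left of Col-0 in dark. The snoRNA genes are higher in cdc5 in every library, while FIB1 is lower and the NHP2 libraries overlap.

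At the level of single transcripts, 82 of the genes have more than 1 annotated transcript. Changes in a transcript's share of its gene's FPKM were largest in RRP41, AT3G06530, RH30 (AT5G63120) and AT2G40430. RH30, a DEAD-box helicase whose summed level was not called (15.8, 15.4 and 13.9 FPKM in cdc5, against 15.5, 14.4 and 14.3 FPKM in Col-0), had the steadiest of these. Its transcript AT5G63120.4 made up 49.6%, 56.8% and 55.9% of the gene in cdc5, against 1.4%, 2.8% and 2.2% in Col-0. In the TAIR10.1 annotation this transcript keeps within an exon the 522 bases of intron 8 of AT5G63120.2 (chr5:25319415-25319936, minus strand), an intron between coding exons of AT5G63120.2. The ends of that intron are shown with 10 bases of exon and 20 of intron, and capitals mark the first and last 2 bases of the intron.
RH30 intron 8, 5′ end: aggggacttgGTaggattaactgtgataca
RH30 intron 8, 3′ end: tcttttgttttgttttacAGatgtgaagga

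The other 3 were less steady between libraries. AT2G40430, a P60-like protein of large-subunit assembly, shifted to transcript AT2G40430.2, at 62.9%, 51.6% and 56.6% in cdc5, against 17.2%, 9.9% and 25.5% in Col-0. That transcript keeps intron 14 of AT2G40430.1 (82 bases). RRP41 shifted to AT3G61620.2, which begins further upstream with an added exon, at 84.9%, 53.5% and 99.3% in cdc5, against 20.8%, 0% and 24.8% in Col-0. In AT3G06530, whose annotated transcripts AT3G06530.4 and AT3G06530.5 differ at 1 splice site and at their ends, AT3G06530.5 held 87.6%, 92.0% and 0% in cdc5 and 0% in each Col-0 library. Cdc5 replicate 3 thus matched Col-0, and the share change of 59.9 points became 89.8 points without it. Such shares come from estimates that divide fragments among overlapping transcripts. Among named genes with a called summed level, the most abundant transcript alone had the opposite sign for AT2G40430 (-1.04), AT3G06530 (-1.18), RRP41 (-2.06), ANAC082 (-1.20), APUM23 (-0.66), RRP6L1 (-0.28) and RH14 (-0.008). RH30, whose summed level was not called, is outside that list. Its most abundant transcript over the 6 libraries, AT5G63120.2, had 7.05, 5.85 and 4.97 FPKM in cdc5, against 12.01, 9.91 and 6.07 FPKM in Col-0.

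**Figure D5:**
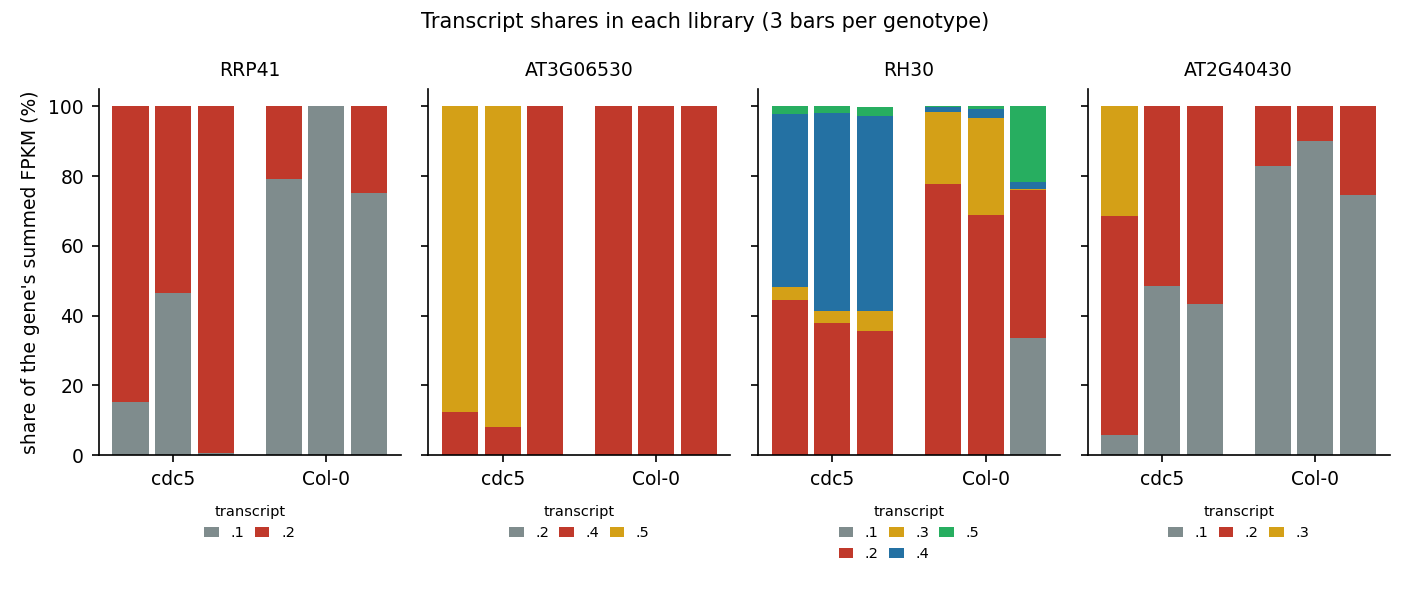
Share of each annotated transcript in the gene's summed FPKM (%), stacked, with 1 bar per library, cdc5 left of Col-0, for the 4 genes with the largest share changes. Transcript AT5G63120.4 of RH30 (blue) fills about the same part of all 3 cdc5 bars and is nearly absent from the Col-0 bars, while AT3G06530 has 1 cdc5 bar like those of Col-0.

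In the authors' deposited table, 40 of the 354 transcripts of these genes were marked significant and up (11.3%), where 7.37% of all transcripts were, and 11 were marked significant and down (3.1%), where 4.82% were. Those marks need a fold change of at least 2. By the deposited q-value alone, 43.8% of the transcripts of these genes were up and 6.5% down at q under 0.05, against 15.5% and 15.8% of all transcripts in the authors' deposited table.

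Several other measures moved with these differences, and their part in them was not tested. Of 5 markers of dividing cells, 4 were called higher in cdc5, where 33.3% of all genes tested were called higher and 22.4% lower. CYCA1;1 had 20.6, 20.6 and 21.1 FPKM in cdc5, against 11.47, 11.97 and 13.02 FPKM in Col-0. CDKB2;1 was not called (log2 fold change 0.048). The summed level of the 5 markers ranged from 146.3 to 146.8 FPKM in cdc5 and from 115.5 to 118.4 FPKM in Col-0. The libraries labelled as rosette leaves held the leaf genes RBCS1A, RBCS3B, LHCB2.1 and CA1 at 548 to 4929.6 FPKM, and also the floral genes AP3, PI and AG at 47.9 to 213 FPKM and the shoot meristem genes STM and WUS at 14.7 to 42.5 FPKM. Of these leaf genes RBCS1A and LHCB2.1 were called higher in cdc5 (log2 fold changes 0.35 and 0.10) and the other 2 were not called, with a summed leaf level of 9121 to 9342 FPKM in cdc5 and 7530.3 to 9065 FPKM in Col-0. The summed floral level was 267, 289 and 259.7 FPKM in cdc5, against 404, 352 and 405 FPKM in Col-0, all 3 floral genes fell, STM rose and WUS fell, and CLV3 was at or near 0. More cells of a type and more RNA per cell cannot be told apart in such tissue. The median length of the longest transcript was 1806 bases in the 205 genes and 1700 bases over all genes tested. Of the 205 genes, 80 overlap another gene in position, and no source used here states whether fragments were assigned by strand, so values of overlapping genes and of close paralogs are less certain.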

How the data were processed

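Polyadenylated RNA of 3 cdc5 and 3 Col-0 libraries was sequenced as dUTP-marked paired reads, per the labels' protocols. The authors deposited FPKM per transcript, a fold ratio of means, its log2 value, and a p-value and q-value from a test the table does not name. Tools named in the submitters' processing notes are HISAT2 2.0.4, StringTie 1.3.4d, cutadapt 1.9, edgeR and DESeq2, with no role stated, and the build given there belongs to the mouse, so it was set aside. RefSeq's TAIR10.1 annotation gave 97.8% of the 27696 nuclear genes the span they have in the table, and was used for exons and promoters.

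The members and gene lists were chosen with earlier results of these data known. FPKM was summed per gene, genes with a mean of at least 1 FPKM were fitted with limma 3.58.1 (R 4.3.3; trend, robust) on log2(FPKM + 1), and p-values were Benjamini-Hochberg adjusted over 19778 genes. The log2(FPKM + 1) scale understates changes of low genes. The fit was tested on simulated data. Role groups came from GO terms and descriptions, in a fixed order. Named genes are those on the pathway lists, the 8 highest and 8 lowest log2 fold changes, the 3 most abundant of each role and the 4 with the largest transcript share changes; others were chosen after their values were seen. Steps between low FPKM values put depth at 20.05 to 25.65 M fragments in cdc5 and 19.15 to 23.85 M in Col-0, but 61.2% to 65.0% of low values were within 0.1 of a whole number, too few to recover counts. A level of 3 fragments per kilobase is 0.117 to 0.157 FPKM; such floors cover counting error only. With 3 libraries against 3 an exact permutation test cannot give a p below 0.10. Alternatives were pseudocounts, filters, scaling, a length and GC adjustment, overlapping genes, the replicate block, single libraries and the most abundant transcript. Both root markers, PHT1;1 and CASP1, are not analysed here. Plots used Python 3.11.15, pandas 2.3.3, numpy 2.4.6 and matplotlib 3.10.9.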

Additional observations from a re-analysis of the deposited data

How the results depend on the processing

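Among the 193 ribosome biogenesis genes, calls of higher genes stayed within 1.5 times the 148 reported, and calls of lower genes within 1.5 times the 8 reported, under every alternative run except one. Without the genes that overlap another gene, 114 remained to test, of which 93 were called higher and 3 lower. The median log2 fold change of 0.47 moved to 0.505 with a pseudocount of 0.1, 0.418 with cyclic loess scaling, 0.388 after adjustment for length and GC content and 0.501 without overlapping genes. Genes called at least 2-fold numbered 4, and 8 with a pseudocount of 0.1, 0 with cyclic loess scaling, 0 after the length and GC adjustment, and 2 without overlapping genes. Leaving out each library in turn gave 144 to 147 called higher, 6 to 7 called lower, 2 to 5 called at least 2-fold (2 without Col-0 replicate 1) and medians of 0.464 to 0.489. Over all genes tested, 33.3% were called higher and 22.4% lower, 26.3% and 26.0% with cyclic loess scaling, and 27.4% and 25.1% after the length and GC adjustment. The causes of these shifts were not tested.

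Same-numbered libraries of the genotypes correlated at 0.043, 0.059 and 0.004 in their deviations, and differently numbered ones at -0.072 to 0.032. Values this small do not settle whether the numbers pair the libraries. With the replicate number as a block, 147 genes were called higher, 6 lower and 4 at least 2-fold, with a median of 0.47. NHP2 passed the threshold with the block at the same log2 fold change of 0.50, and under no other alternative run.

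The leave-one-out share changes ran from 54.0 to 76.9 points for AT3G61620.2, from 43.8 to 89.8 for AT3G06530.5, from 50.6 to 54.2 for AT5G63120.4 and from -57.8 to -36.5 for AT2G40430.1. Log2 fold changes of 98 named genes under 14 alternatives gave 1326 values. Of these, 1277 kept their status as called or not called, 35 lost a call and 5 gained one. The other 9 changed sign where the reported value or the alternative was called. Sign changes with no call in either were counted among the 1277. With the most abundant transcript, RRP6L1 stood at -0.28, APUM23 at -0.66, AT2G40430 at -1.04, RH14 at -0.008, AT3G06530 at -1.18, RRP41 at -2.06 and ANAC082 at -1.20. After the length and GC adjustment CRB stood at -0.10 and CSP41A at 0.022. The shares of promoters with a motif kept within their binomial interval in the narrower window and in the genes that passed the filter. Both are parts of the same promoters, so this was nearly fixed in advance. In the narrower window a telo box stood in 26.3% of the promoters, against 4.8% of all promoters. Site II stood there in 46.8%, against 18.2% of all promoters.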
